A study of Mus musculus with 18 samples.

Results

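BMAL1 binding at the REV-ERB genes Nr1d1 and Nr1d2 was described from ChIP-seq peak lists of mouse liver, kidney and heart. A peak belonged to a REV-ERB gene when its centre lay inside Nr1d1 or Nr1d2 or within 10 kb of either end of the gene, on the mouse build GRCm38 (mm10). This rule uses position and not the peak score. It took 4 of the 4813 liver peaks, 4 of the 4034 kidney peaks and 4 of the 2519 heart peaks. Overlapping peaks from separate lists (1 bp or more in common) were joined into a site, and the 12 peaks formed 4 of the 9005 sites of the series.

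The mice were wild-type C57BL/6 animals of 3 to 6 months, kept on 12 h light and 12 h dark cycles with free access to food. Liver, kidney and heart came from the same animals, 3 mice per tissue, at 6 h after lights on (ZT06, the middle of the light phase). There were 18 libraries, with 3 BMAL1 ChIP and 3 input libraries per tissue. All groups shared genotype, strain, age range and time of collection, so the lists compare tissues at a single circadian time. Whole organs were used, so a peak list mixes the cell types of the organ, and no expression values were used here to check the tissue labels against marker genes. Replicates of a tissue were pooled by the authors into 1 peak list. No value therefore has an error between animals, read depth is unknown, and no test was made. For the 3 heart input libraries, the source label says kidney while title and tissue label say heart, so sharing is also given below without the heart list.

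REV-ERBα (Nr1d1) and REV-ERBβ (Nr1d2) are nuclear receptors that take heme as a ligand and repress transcription by recruiting corepressors. They bind the DNA element that the ROR receptors use for activation, and the gene for BMAL1 itself (Arntl) is among the best known genes they repress. BMAL1 and CLOCK in turn bind E-box sequences at Nr1d1 and Nr1d2, which closes a feedback loop that stabilises the circadian clock. The peak lists bear on the step in which BMAL1 binds the REV-ERB genes.

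The bases before the start of each gene are shown because the Nr1d1 window overlapped a peak in all 3 tissues and the Nr1d2 window overlapped none. The Nr1d1 bases shown hold only part of each peak and leave out its centre, which lies after the start. Both genes lie on the minus strand, and each sequence runs 5′ to 3′ in the direction of the gene and ends at the base before the start (RefSeq, GRCm38.p6). They lie at chr11:98775378-98775627 and chr14:18239107-18239356. Capitals in Nr1d1 mark AACGTG, which is CACGTT read on the other strand. Capitals in Nr1d2 mark AGGTCA, the half-site of the element bound by REV-ERB and ROR receptors.
Nr1d1: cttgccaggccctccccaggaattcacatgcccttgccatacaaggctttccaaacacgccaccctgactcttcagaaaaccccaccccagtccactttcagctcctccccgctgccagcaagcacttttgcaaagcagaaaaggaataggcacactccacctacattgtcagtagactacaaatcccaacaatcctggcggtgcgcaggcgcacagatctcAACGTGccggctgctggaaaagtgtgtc
Nr1d2: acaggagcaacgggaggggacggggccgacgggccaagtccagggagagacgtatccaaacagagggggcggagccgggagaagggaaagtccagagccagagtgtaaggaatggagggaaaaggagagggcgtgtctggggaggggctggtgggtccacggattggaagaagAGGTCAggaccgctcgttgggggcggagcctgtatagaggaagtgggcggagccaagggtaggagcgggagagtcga

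Nr1d1 (chr11:98767932-98775377, 7446 bp) had 3 BMAL1 sites, and each was present in liver, kidney and heart. Nr1d2 (chr14:18204056-18239106, 35051 bp) had 1 site, also present in all 3 tissues. Both REV-ERB genes thus had peaks in every list. For comparison, a peak lay inside or within 10 kb of 18.1% of 21900 protein-coding genes in liver, 18.0% in kidney and 11.5% in heart. A site found in all 3 tissues lay at 676 protein-coding genes (3.09%). Among genes no shorter than Nr1d1 the share was 3.49%, and among genes no shorter than Nr1d2 it was 3.68%. Without the heart list, all 4 REV-ERB sites were found in both liver and kidney, where 7.87% of protein-coding genes had such a site.

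The authors' score, a whole number per peak of unstated scale, was used to rank peaks within a list. Scores lay between 17 and 389 for liver, 14 and 304 for kidney, and 16 and 375 for heart. All 4 REV-ERB peaks lay among the 12 highest of each list. Their scores were 277 to 389 in liver against a list median of 40, 245 to 304 in kidney against a median of 28, and 247 to 375 in heart against a median of 25. The 4 sites stood in the same order in every list: the Nr1d1 site upstream of the gene, the Nr1d2 site, the Nr1d1 site in the gene body and the Nr1d1 site at the start.

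The upstream Nr1d1 site was the highest peak of each list, with a score of 389 in liver, 304 in kidney and 375 in heart. Its peaks were chr11:98783376-98783617 in liver, chr11:98783398-98783585 in kidney and chr11:98783396-98783593 in heart. Their centres lay 8.12, 8.11 and 8.12 kb upstream of the Nr1d1 start. This stretch is outside Nr1d1 but inside Gm31862, an annotated long non-coding RNA gene (chr11:98775411-98783728) that starts 34 bp from Nr1d1 and runs the opposite way. The site is therefore near the 3′ end of Gm31862. No protein-coding gene other than Nr1d1 has this site within 10 kb. The nearer end of the next gene, Msl1, was 10011.5 to 10016.5 bp from the peak centres, so Msl1 just missed the window.

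The Nr1d1 site in the gene body scored 306 in liver (rank 7), 290 in kidney (rank 3) and 305 in heart (rank 4). After the start, its centre came at 1510.5 bp (liver), 1504.5 bp (kidney) and 1486.5 bp (heart). The liver peak was chr11:98773746-98773987. The exon or intron there is not given by the annotation used here.

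The third Nr1d1 site covered the start of the gene. It scored 277 in liver (rank 12), 245 in kidney (rank 10) and 247 in heart (rank 12), the lowest of the REV-ERB peaks in each list. Its centre lay 17.5 bp after the start in liver (chr11:98775239-98775480), 12.5 bp in kidney (chr11:98775271-98775458) and 25.5 bp in heart (chr11:98775253-98775450). The same peaks also overlapped the start of Gm31862, so they cannot be assigned to either of these divergent genes by position. Both sites inside Nr1d1 also lay within 10 kb of Thra, the thyroid hormone receptor α gene, whose annotated end overlaps that of Nr1d1 by 1075 bp.

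The Nr1d2 site ranked second in each list, with scores of 345 in liver, 301 in kidney and 324 in heart. Its centre lay inside the gene, 517.5 bp after the start in liver (chr14:18238468-18238709), 514.5 bp in kidney (chr14:18238498-18238685) and 515.5 bp in heart (chr14:18238492-18238689). In kidney the scores of the upstream Nr1d1 site and the Nr1d2 site were 304 and 301, whereas 389 and 345 were listed in liver and 375 and 324 in heart. Without replicate values these gaps have no error. No other protein-coding gene had the Nr1d2 site within 10 kb.

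**Figure D1:**
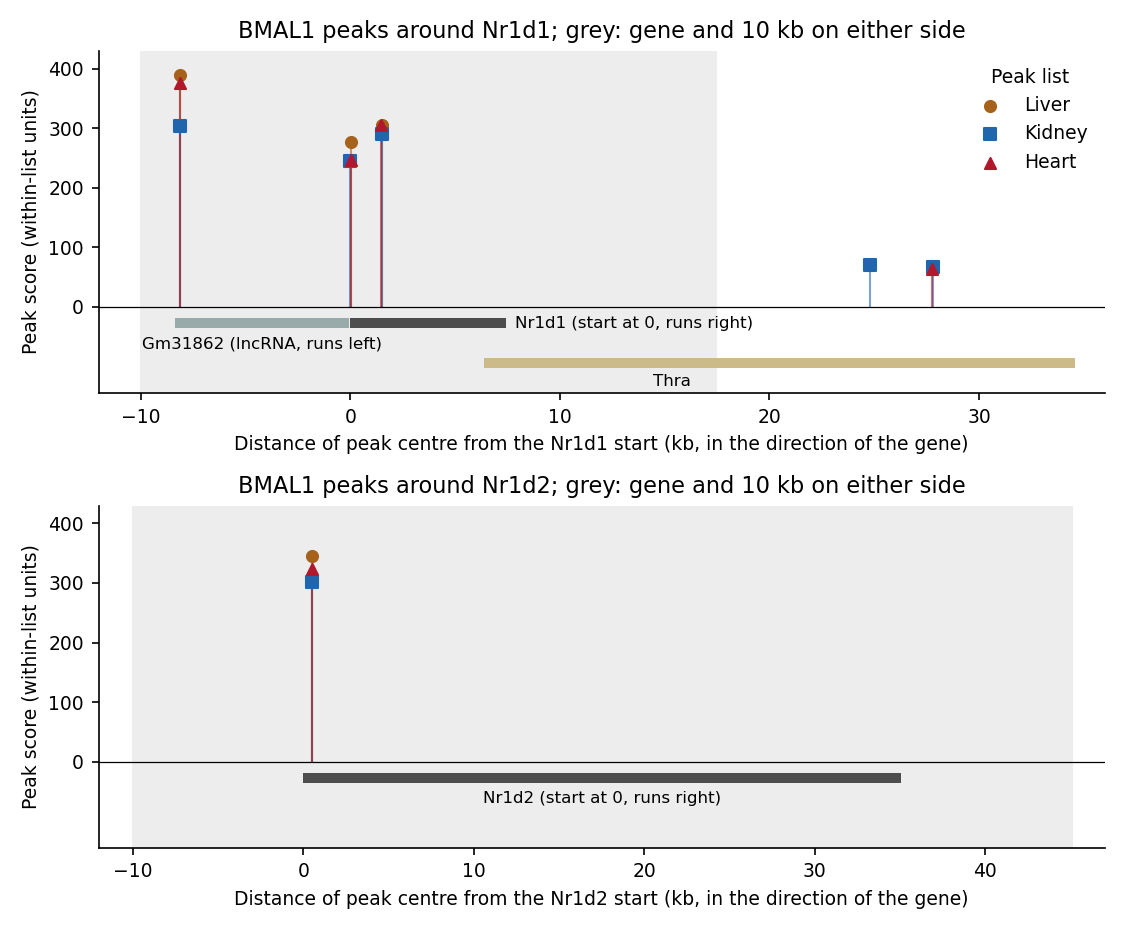
BMAL1 peaks around Nr1d1 (top) and Nr1d2 (bottom), with distance of the peak centre from the gene's start on the x axis (kb, gene running right) and the authors' peak score on the y axis; circles are liver, squares kidney and triangles heart, and bars show annotated genes. The 3 Nr1d1 sites and the Nr1d2 site carry a peak of each tissue inside the grey window, and the peaks in Thra lie outside it with scores of 63 to 70.

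The nearest peaks outside the 10 kb limit ranked lower than those inside it, and none lay just beyond the limit. The farthest peaks inside the Nr1d1 window were those of the upstream site. The nearest outside it were a kidney peak 17.4 kb from the gene (score 70, rank 449) and a heart peak 20.3 kb away (score 63, rank 335), both inside Thra. In liver the nearest was 34.3 kb away (score 97, rank 495). Nr1d2 stood alone over a longer distance. Its nearest other peak was 115 kb away in kidney (score 14, rank 3802), 334 kb in heart (score 18, rank 1826) and 1601 kb in liver (score 18, rank 4543).

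The position of each site was then compared between the lists. The outermost of the 3 peak centres were 3 bp apart at the Nr1d2 site and 5 bp apart at the upstream Nr1d1 site. They were 13 bp apart at the Nr1d1 start and 24 bp in the gene body. Over the 519 sites found in all tissues the median was 27 bp, with quartiles of 17 and 46 bp. A spread of 3 bp or less was found at 5 of these sites and a spread of 5 bp or less at 17. The REV-ERB sites are high peaks, and the 50 common sites with the best mean rank had a median spread of 19.5 bp. Distances between the Nr1d1 sites were likewise close in the 3 lists. From the gene-body centre to the upstream centre the distance was 9630 bp for liver, 9619 bp for kidney and 9604 bp for heart.

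**Figure D2:**
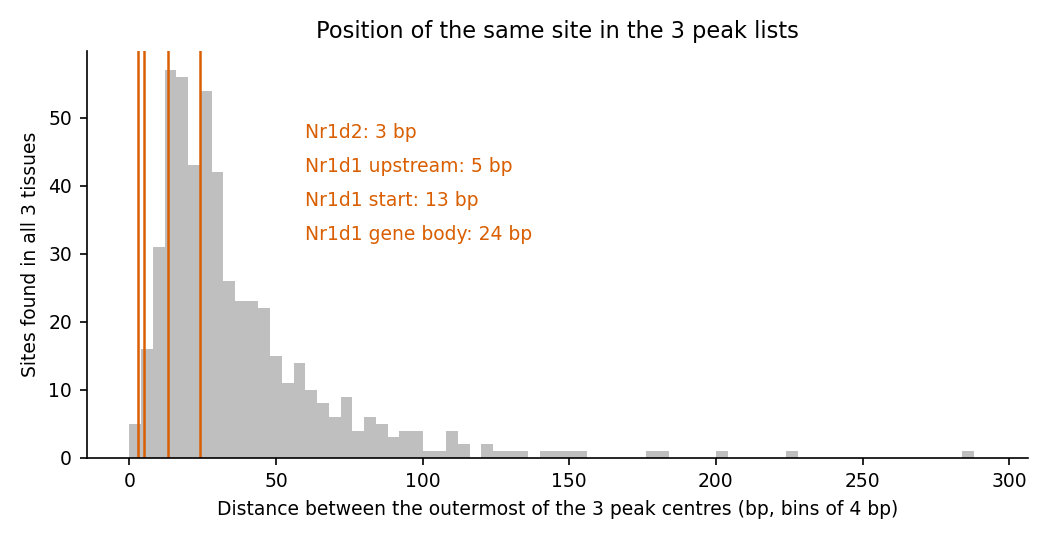
Distance between the outermost of the liver, kidney and heart peak centres (x axis, bp) for the 519 sites found in all 3 tissues (y axis, number of sites per bin), with orange lines at the 4 REV-ERB sites. The Nr1d2 site (3 bp) and the upstream Nr1d1 site (5 bp) lie at the left edge, and the other sites at 13 and 24 bp lie below the median of 27 bp. The 50 common sites with the best mean rank had a median of 19.5 bp, and the gene-body site at 24 bp lies above it.

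The REV-ERB sites lay at unequal distances from listed starts. Of 510 common sites on chromosomes with listed starts, 62.0% lay within 1 kb of a start, 15.1% at 1 to 10 kb and 22.9% beyond 10 kb. The Nr1d1 start site was among the 86 common sites (16.9%) within 50 bp of a start. The Nr1d2 site was within 1 kb, and the gene-body and upstream Nr1d1 sites were in the class from 1 to 10 kb.

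Sequence was available for the bases from 250 before to 50 after listed starts. It covered 1 of the 4 REV-ERB sites whole, that at the Nr1d1 start, through the windows of Nr1d1 and Gm31862 together. CACGTG, the canonical E-box, and CACGTT, a variant of it, were searched on both strands, as were the general E-box form CANNTG, which also takes in CACGTG, and AGGTCA. The Nr1d1 window held no CACGTG or AGGTCA and 1 CACGTT. The CACGTT match read AACGTG in the direction of Nr1d1, beginning 28 bases before the start, and lay inside the peak of each tissue. It was 43, 38 and 51 bp from the liver, kidney and heart peak centres. CANNTG matches are common, in 72.3% of all 32851 promoter windows, that of Nr1d1 included, so CACGTT was not the only E-box form there. In each tissue a CANNTG match lay nearer the peak centre than the CACGTT match did. CACGTG was found in 7.15% of all windows and CACGTT in 4.68%. Among the 272 windows that overlapped a peak in each tissue, 52.6% held CACGTG and 10.7% held CACGTT. Pairs of CACGTG or CACGTT with 6 or 7 bases between them were found in 0.0183% of all windows. Neither REV-ERB window could hold a pair, since that of Nr1d1 had 1 such match and that of Nr1d2 had 0. A match describes letters and not a used site.

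The letters around the CACGTT match before the Nr1d1 start are set beside those at Per1 and Tef. These are clock-controlled genes whose promoter windows also overlapped a peak in all 3 tissues and held CACGTG. The CACGTT match also lies in the window of Gm31862, beginning 11 bases before the start of that gene. By position it cannot be assigned to either Nr1d1 or Gm31862. The stretches lie at chr11:98775388-98775417 (minus strand, before the Nr1d1 start), chr11:69098771-69098800 (plus strand) and chr15:81802534-81802563 (plus strand), and capitals mark the match.
Nr1d1: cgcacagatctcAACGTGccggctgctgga
Per1: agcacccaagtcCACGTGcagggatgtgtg
Tef: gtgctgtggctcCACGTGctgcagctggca

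At Per1 the CACGTG lay 7 bp from the liver centre, 24 bp from the kidney centre and 4 bp from the heart centre, and that peak ranked 50, 48 and 43. At Tef the CACGTG lay 54, 43 and 90 bp from the liver, kidney and heart centres, and that peak ranked 352, 121 and 232. The Nr1d1 start site, with no CACGTG in its peak, stood at ranks 10 to 12. These peaks were picked, and whether the motif goes with rank was not tested. The windows of Dbp, Per3 and Hlf that overlapped a peak in all 3 tissues held neither CACGTG nor CACGTT. The Nr1d2 window held none of the E-box forms searched and 1 match to AGGTCA, beginning 77 bases before the start, a motif present in 16.3% of all windows. The Nr1d2 peaks lay outside that window. The letters under the Nr1d2 site and under the upstream and gene-body Nr1d1 sites were not analysed here.

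The REV-ERB genes were next set beside the Period genes and the PAR bZIP genes Dbp, Tef and Hlf, which are also activated by BMAL1 and CLOCK. All 4 REV-ERB sites were found in 3 tissues, against 5 of 9 sites at Per1, Per2 and Per3 and 9 of 13 at Dbp, Tef and Hlf. The best rank of a comparison site not found in all 3 tissues was 426 (kidney, Tef). Every comparison site with a better rank in any list was thus shared as well, so full sharing was not particular to the REV-ERB sites. In the whole series 519 of 9005 sites (5.76%) were. The lowest REV-ERB rank was 12, whereas sites at the comparison genes reached down to rank 3323 (kidney, Per2) and 3066 (liver, Hlf). Each of these groups also had peaks near the top. The best site of Per1 ranked 4 in liver, 7 in kidney and 9 in heart, that of Dbp 3, 4 and 3, and that of Tef 8, 5 and 6. These are descriptions, since genes are few and were chosen with their ranks known.

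**Figure D3:**
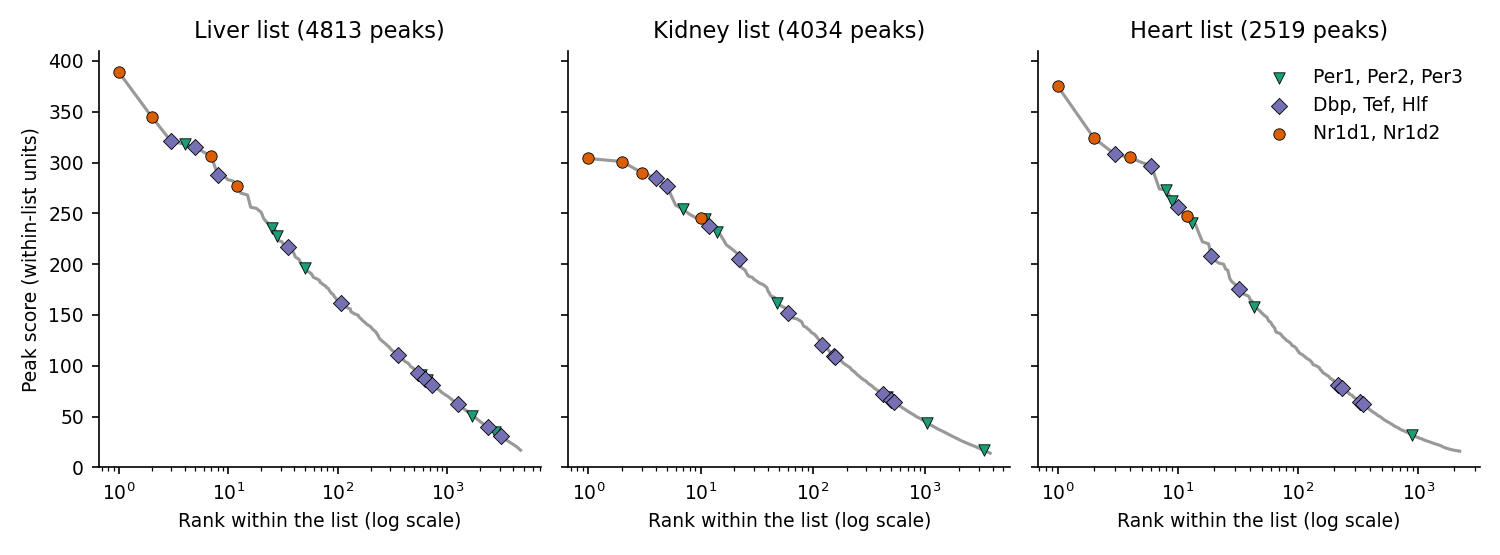
Peak score (y axis, units of each list) against rank within the list (x axis, log scale) for liver, kidney and heart, with the grey line showing every peak of the list and symbols showing peaks at REV-ERB, Period and PAR bZIP genes. Orange circles (Nr1d1 and Nr1d2) lie at ranks 1 to 12 in each list, and the other groups extend further down.

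Nr1d1 was among 10 protein-coding genes (0.0457%) with 3 sites found in all tissues, and no gene had more. The others were Dbp and its neighbours Car11 and Sphk2, which share peaks, and Bhlhe40, Bhlhe41, Tef, Klf9, Hlf and Usp2. The lowest of the 3 sites ranked 12, 10 and 12 in liver, kidney and heart at Nr1d1, and 35, 22 and 19 at Dbp. At Usp2, a deubiquitinase gene, it ranked 3458, 1295 and 506. Common sites this close together were rare, with 5 places in the genome where 3 of them lay within 10 kb. These were at Nr1d1 (9618 bp from first to last), Dbp (2734 bp), Bhlhe40 (9075 bp), Klf9 (5966 bp) and Usp2 (6812 bp).

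The genes most like each member were found by the distance between the log10 of their best ranks over the 3 lists, among 953 genes with a peak in every list. The members themselves were 0.52 apart and were left out of each other's search. They hold ranks 1 and 2 in every list, so this measure could return only genes at other top peaks. For Nr1d1 the nearest other genes were Dbp, Car11, Sphk2 and Rpl18, all at a distance of 0.90 through the same Dbp peak, and Thra at 1.14 through the gene-body Nr1d1 peak. The same genes came first for Nr1d2 through the same peaks, at 0.39 and 0.65, with Thra again through the gene-body Nr1d1 peak.

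Genes that act with the REV-ERB receptors were then listed by role. Of 15 clock genes and feedback partners, 12 had a liver peak, 13 a kidney peak and 13 a heart peak, and 12 had a site in all tissues. The shares over all protein-coding genes were 18.1, 18.0 and 11.5%, and 3.09% for a site in all tissues. Those without a common site were Arntl, Clock and Npas2, the genes of BMAL1 and its partners. ROR receptors activate from the element that REV-ERB represses. Of the 2 ROR genes described here, Rora had 7 sites, none found in all 3 tissues, and Rorb had no peak. The best Rora ranks were 1408, 1037 and 1826. Rora is 734843 bp long, so its window is wide, and the shares over all genes were not matched for length in these lists.

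The corepressor genes described here had weaker peaks or none. Of 5 genes, 2 had a liver peak, 4 a kidney peak and 0 a heart peak, against 18.1, 18.0 and 11.5% of all genes, and none of the 5 had a common site. Gps2 and Tbl1x, which encode subunits of the corepressor complex, had best ranks of 1522 and 2345 in liver and 1198 and 1473 in kidney. Ncor1, whose product binds REV-ERB directly, had no peak. Hdac3, the histone deacetylase of the complex, had a kidney peak at rank 1530 and no other.

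Of 11 reported REV-ERB target genes, 4 had a liver peak, 4 a kidney peak and 3 a heart peak, against the same 18.1, 18.0 and 11.5% of all genes. A site in all tissues was found at 2 of them, Cry1 and Nfil3, which are clock genes. Cry1 ranked 35 in liver, 27 in kidney and 24 in heart, and Nfil3 57, 203 and 464. Of the 6 targets outside the clock list, 2 had a liver peak, 1 a kidney peak and 0 a heart peak. With so few genes these counts are near the shares over all genes. The genes with a peak were Insig2, a brake on lipid synthesis (liver rank 352), and G6pc, the last enzyme of gluconeogenesis (liver rank 483, kidney rank 2474). No peak lay at Elovl3, Apoc3, Fgf21 or Lpl.

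Of 10 genes that make or break down heme, the REV-ERB ligand, 4 had a liver peak, 4 a kidney peak and 0 a heart peak, against 18.1, 18.0 and 11.5% of all genes, and none had a common site, against 3.09%. Alas1, the rate-limiting enzyme of heme synthesis in liver, had best ranks of 1008 in liver and 1408 in kidney. Of 6 genes for REV-ERB protein turnover, 2 had a liver peak, 2 a kidney peak and 2 a heart peak, beside the same shares over all genes. Siah2, a ubiquitin ligase gene, had the common site of this list, at rank 1095 in liver, 758 in kidney and 344 in heart. Fbxw7, Huwe1 and Gsk3b had no peak. A missing peak says that the list holds none there, since the depth and the cut-off of each list are unknown.

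**Figure D4:**
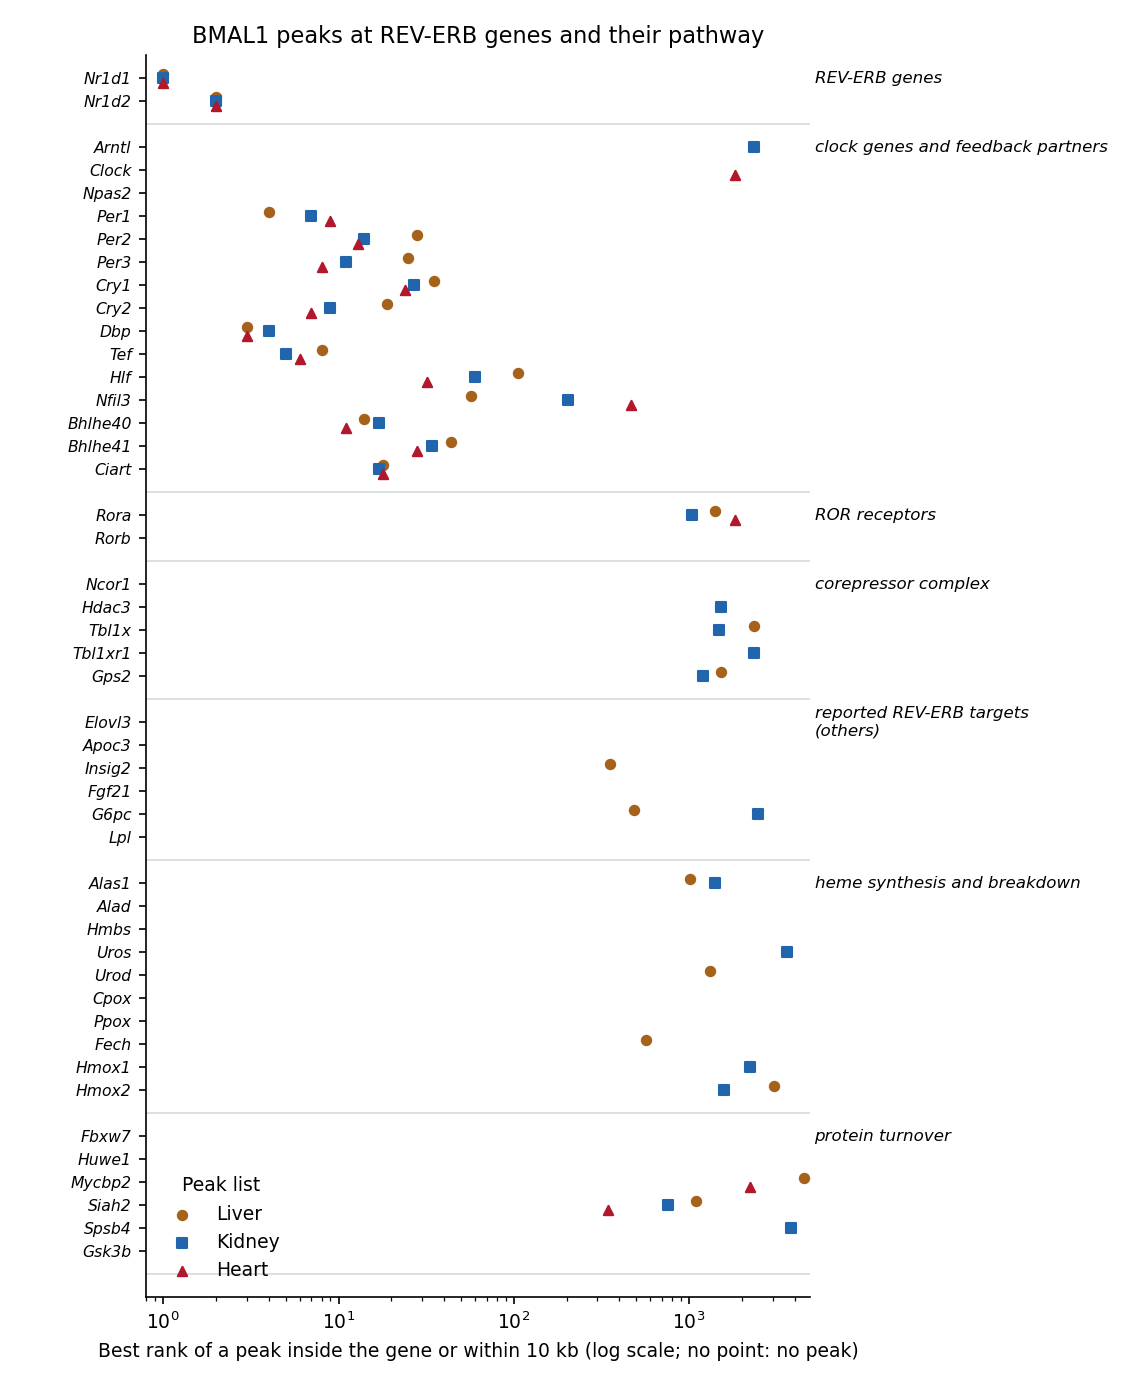
Best rank of a BMAL1 peak inside each gene or within 10 kb of it (x axis, log scale) for the REV-ERB genes and 6 lists of genes by role (y axis); circles are liver, squares kidney and triangles heart, and a missing symbol means no peak in that list. Nr1d1 and Nr1d2 are at ranks 1 and 2, most clock genes lie between ranks 3 and 464, and peaks at corepressor, heme and turnover genes lie at rank 344 or lower in the lists.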

How the data were processed

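Per the series' design text, the authors made each peak list from all ChIP and input replicates of a tissue together. The submitters' processing notes name Bowtie2, SAMtools, HOMER and the build mm10, without roles, versions or settings. The score that the authors deposited with each peak has no stated scale and was used only within its list. All peaks of a list have the same width (242 bp in liver, 188 bp in kidney, 198 bp in heart). A longer or deeper list can hold weaker peaks, so ranks were not compared as changes between tissues.

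Gene limits and names came from the RefSeq table of GRCm38.p6, and starts, strands and promoter sequence from the RefSeq promoter table of that build. Both members and all 44 genes used from the 6 lists matched a symbol; a few items that the rules select are not reported here. Coordinates count from 1. Equal scores took the best rank. Assignment, merging and motif search used Python 3.11.15, pandas 2.3.3 and numpy 2.4.6 and were tested on simulated peaks.

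The members, gene lists and windows were chosen with earlier results of these data known. The named genes were all members' sites, genes of the lists by role, the 5 genes most like each member by log10 best rank, neighbours sharing a peak, and the Period and PAR bZIP genes. Alternatives were other windows (5, 20 and 50 kb), the upper 50% of each list by score and assignment to the nearest protein-coding gene. Other overlap rules, tie ranks and the central 100 bp of peaks were also tried. Leaving out the heart list was added after seeing the data.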

Additional observations from a re-analysis of the deposited data

How the results depend on the processing

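All 4 REV-ERB sites were found in all tissues with an overlap of 50% of the shorter peak and with centres within 1000 bp. The same held among the upper 50% of scores per list and with a 20 kb window. These settings could not change that result. The centres of a site were at most 24 bp apart, every REV-ERB rank was 12 or better, and a wider window keeps the peaks of the narrower one. A 5 kb window dropped the upstream Nr1d1 site, leaving 3 sites, and the best Nr1d1 rank became 7 in liver, 3 in kidney and 4 in heart. A 50 kb window took in peaks in Thra, near Casc3 and in Med24, giving 8 kidney peaks and 9 merged sites. With a 5 kb window, 15.5% (liver), 15.5% (kidney) and 9.99% (heart) of protein-coding genes had a peak, against 22.8, 22.6 and 14.6% with 20 kb and 11.0, 10.7 and 7.15% in the upper 50% of each list. In the central 100 bp of the heart peak at the Nr1d1 start the CACGTT match was cut off, giving 0 matches against 1 in the whole peak. Of 78 values under alternatives, 63 stayed within 1.5 times of a count, at the same rank or inside the exact 95% interval of a share. Some of these could not have moved, so the count is no measure of stability. No REV-ERB peak had the score of another peak in its list, so tie ranks could not act. Leaving out the heart list could not remove a site found in all tissues. No paired analysis was possible because each list pools its replicates, and for the same reason no replicate could be left out. The lists carry no depth, so a missing or low peak may reflect sensitivity.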

Other observations

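Thra, which overlaps the end of Nr1d1, had peaks of its own that the REV-ERB window did not reach. A kidney and heart site inside Thra ranked 487 in kidney and 335 in heart, and a kidney peak about 3 kb away ranked 449. No liver peak lay at these places, whereas the Nr1d1 sites were among the 12 highest peaks of liver, kidney and heart. Near Casc3, on the other side of Nr1d1, a site was found in liver (rank 495) and kidney (rank 185) and not in the heart list.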
